A study of Mus musculus with 9 samples.

Results

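The insulin signalling, FoxO and muscle atrophy genes described here are 10 of the 22851 genes in the deposited mouse heart RNA-seq table. They were taken by name, with earlier results of these data known. They are the insulin receptor gene Insr, the adaptor genes Irs1 and Irs2, the phosphoinositide 3-kinase (PI3K) regulatory subunit gene Pik3r1, the kinase genes Akt1 and Akt2, the transcription factor genes Foxo1 and Foxo3, and the ubiquitin ligase genes Fbxo32 and Trim63. RNA was sequenced in 9 libraries from hearts of male C57BL/6 mice (C57BL/6J in the methods of the study) aged 6 to 8 weeks at the start, with 3 libraries per group. The control check group (CK) received citrate buffer. The diabetic cardiomyopathy group (DCM) received a single injection of streptozotocin, a toxin of the insulin-making beta cells, and was studied after 12 weeks. The spermine group (SPM) received the same streptozotocin model together with the polyamine spermine at 1 mg/kg, daily over the 2 weeks ahead of the injection and on alternate days afterwards. No mice given spermine without streptozotocin were analysed here, so SPM was compared with DCM for the added spermine and with CK for both agents together.

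Insulin binds its receptor, a tyrosine kinase, which phosphorylates the adaptors IRS1 and IRS2. The adaptors recruit PI3K through its regulatory subunits, the lipid made by PI3K brings Akt to the membrane, and Akt phosphorylates FoxO factors and thereby keeps them out of the nucleus. When insulin is low, nuclear FoxO factors are known to raise the genes of the muscle ubiquitin ligases atrogin-1 (Fbxo32) and MuRF1 (Trim63), which mark muscle proteins for breakdown, and to raise Irs2 in liver. These steps run largely through protein phosphorylation, which RNA levels do not show.

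Total counts lay between 29901300 and 39718680 per library. The tissue label names the heart, whereas the extraction protocol speaks of retinas. All 6 measured cardiomyocyte markers were at or above 1 CPM (count relative to the library total) in each library, led by the myosin gene Myh6, and the list summed to between 36880 and 49500 CPM. Of 5 measured retina markers only Rom1 reached 1 CPM in every library, and the skeletal fibre list summed to at most 6.33 CPM. The methods give both single mice and pools of 6 hearts as the source of a library, so p-values measure the spread between libraries. SPM replicate 2 lay between SPM replicates 1 and 3 for 68.4% of 12610 genes and for 7 of the 9 tested members, and the other 8 libraries lay between their partners for 14.6% to 39.6%. Since its independence is in doubt, fold changes, counts, ratios and sums that rest on SPM are also given without it. Fold changes fell with the GC content of genes in SPM compared to DCM (Spearman rho of -0.50 over 14484 genes, not independent of each other), and in SPM compared to CK (-0.37), against 0.060 in DCM compared to CK. Mitochondrial genes took 13.7% to 18.9% of counts in CK and DCM and more, at most 21.1%, in each SPM library.

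Of the 10 genes, 9 passed the filter on low counts in each comparison and Fbxo32 did not. In DCM compared to CK, 3 of the 9 passed the test (Benjamini-Hochberg adjusted p below 0.05 over all genes tested, by the quasi-likelihood F-test of edgeR): Pik3r1 and Foxo3 rose and Irs1 fell. Over all 14402 genes tested, 10.4% passed. With the added limit of a 1.5-fold change, which defines a differentially expressed gene (DEG) here, Pik3r1 and Foxo3 remained, against 4.34% of all genes. Between SPM and DCM only Irs2 passed, with a fall of less than 1.5-fold, where 16.6% of 14493 genes passed and 3.59% were DEGs. Of the 9, 4 passed in SPM compared to CK, with Pik3r1, Foxo3 and Insr higher and Irs1 lower, where 27.4% of 14574 genes passed. Pik3r1 and Foxo3 were again the DEGs, against 9.21% of all genes. On leaving out SPM replicate 2, none of the 9 passed against DCM and the same 4 passed against CK, and no log2 difference of the 9 genes moved by more than 0.039. The share of all genes past the test without that library is not given here. These counts are therefore not read as results about the 9 genes. The CK libraries enter both comparisons with CK and the DCM libraries enter both comparisons with DCM.

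The libraries of the groups did not overlap for 3 of the 9 genes in DCM compared to CK, namely Pik3r1, Foxo3 and Irs1, and for 29.3% of all genes tested. They did not overlap for 3 in SPM compared to DCM, with Insr higher and Irs2 and Akt2 lower, against 39.2% of all genes. The number was 5 in SPM compared to CK, the 4 genes that passed the test and Akt2, against 46.3%. These 3 and 5 genes also did not overlap without SPM replicate 2, against 41.4% and 48.1% of all genes. The share of the 9 genes that passed or did not overlap in SPM compared to DCM was thus not above that of all genes.

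**Figure D1:**
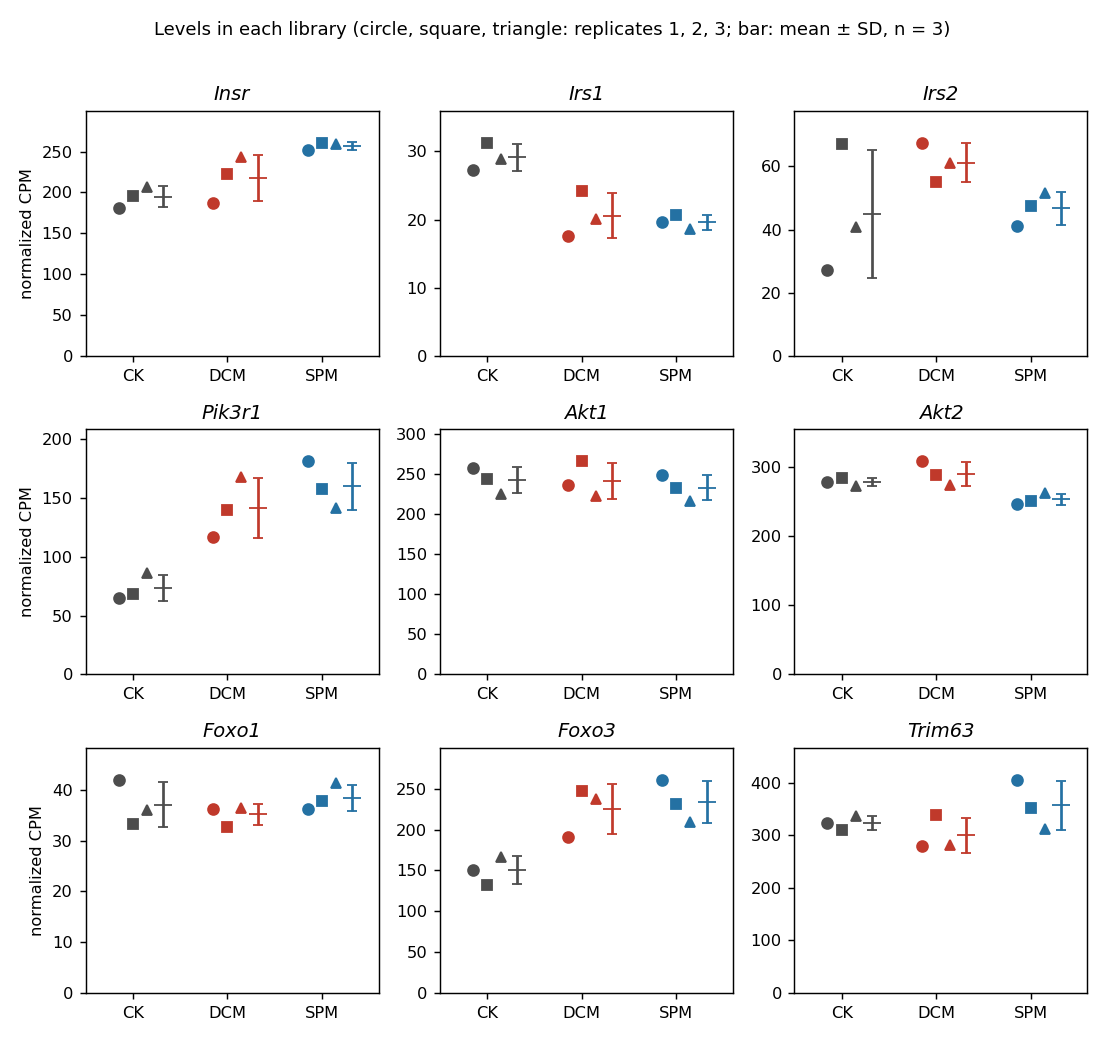
Normalized CPM (vertical axes, from 0) of the 9 tested genes in each CK, DCM and SPM library, with mean ± SD of 3 libraries. The DCM and SPM libraries of Pik3r1 (117 CPM or more) and Foxo3 (191 CPM or more) sit above all CK libraries, and those of Irs1 (24.1 CPM or less) sit below them.

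**Figure D2:**
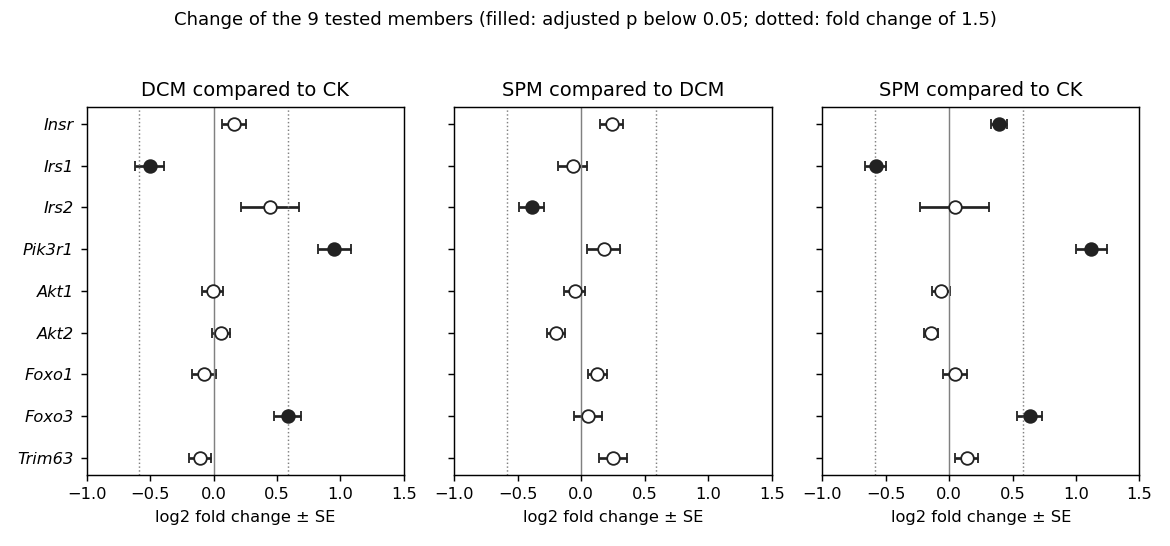
Log2 fold change ± SE (horizontal axis) of the 9 tested genes in the 3 comparisons, with filled points at adjusted p below 0.05 and dotted lines at a fold change of 1.5. Pik3r1 has the largest change in both comparisons with CK (0.95 and 1.12), and no point passes a dotted line in SPM compared to DCM.

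Levels of different genes were compared per gene length, as deposited FPKM (fragments scaled to gene length and library total). In every group the order of the mean FPKM was Trim63, Akt1, Akt2, Foxo3, Insr, Pik3r1, Irs2, Foxo1 and Irs1. The means in CK ran from 179 ± 5.45 FPKM (SD, n = 3) for Trim63 to 3.33 ± 0.247 FPKM for Irs1. Neighbours in the order did not always separate. In CK the libraries of Foxo3 (20.4 to 25.1 FPKM) and Insr (20.3 to 22.8 FPKM) overlapped, as did those of Irs2 (4.51 to 11.2 FPKM) with both Pik3r1 (9.65 to 12.4 FPKM) and Foxo1 (4.04 to 5.08 FPKM). In DCM the libraries of Insr (20.1 to 25.4 FPKM) and Pik3r1 (16.4 to 23.1 FPKM) overlapped.

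Insr (ENSMUSG00000005534, chr8:3122061-3279617 on the minus strand of GRCm38) encodes the insulin receptor. Its level was 181, 196 and 207 normalized CPM in the CK libraries, 188, 223 and 243 in DCM, and 252, 261 and 260 in SPM (replicates 1, 2 and 3 throughout; CPM are normalized by TMM). The CK and DCM libraries overlapped, and all SPM libraries lay above both. SPM exceeded CK by 0.40 on the log2 scale (SE 0.063, edgeR adjusted p = 0.00340), a fold of 1.32. The call remained without SPM replicate 2 (0.39, edgeR adjusted p = 0.0254) and with GC correction (0.34, edgeR adjusted p = 0.00396). The differences of 0.16 (SE 0.094) in DCM compared to CK and 0.24 (SE 0.091) in SPM compared to DCM did not pass (edgeR adjusted p = 0.318 and 0.0933).

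Irs1 (ENSMUSG00000055980, chr1:82233101-82291416, minus strand) and Irs2 (ENSMUSG00000038894, chr8:10984681-11008458, minus strand) encode the adaptors that bind the activated receptor. Since these were the members that fell in a comparison, the 250 bases before their RefSeq start sites (GRCm38.p6) are shown. Capitals mark matches to the insulin response core CAAAACA, read here as TGTTTTG on the other strand.
Irs1, chr1:82291440-82291689, minus strand: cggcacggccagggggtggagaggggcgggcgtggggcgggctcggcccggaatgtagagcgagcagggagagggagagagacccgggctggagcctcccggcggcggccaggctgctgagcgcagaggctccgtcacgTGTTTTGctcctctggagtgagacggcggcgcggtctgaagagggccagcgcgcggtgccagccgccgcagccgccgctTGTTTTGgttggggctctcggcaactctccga
Irs2, chr8:11008930-11009179, minus strand: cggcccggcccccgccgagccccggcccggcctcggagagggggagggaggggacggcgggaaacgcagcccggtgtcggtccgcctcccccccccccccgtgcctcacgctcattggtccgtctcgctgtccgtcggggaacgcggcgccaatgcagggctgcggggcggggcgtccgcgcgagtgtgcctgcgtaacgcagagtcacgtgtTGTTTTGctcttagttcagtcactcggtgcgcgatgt
In Irs1 the matches begin 111 and 32 bases before the start, and in Irs2 the match begins 37 bases before it. Of 8 members with RefSeq promoter windows (13 windows), Irs1 and Irs2 were the ones with this motif, which 6.28% of 32851 windows of 300 bases hold on either strand. The palindrome CACGTG, an E-box searched for after these sequences had been seen, begins 115 bases before the start of Irs1, where it shares 2 bases with the first match, and 44 bases before that of Irs2. It is in 7.15% of windows. The RefSeq starts of Irs1 and Irs2 lie outside the GENCODE genes. A match is a run of letters and was not tested for binding.

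The level of Irs1 was 27.3, 31.3 and 28.9 normalized CPM in CK, 17.6, 24.1 and 20.0 in DCM and 19.6, 20.7 and 18.6 in SPM. Every DCM and SPM library was below every CK library, and DCM and SPM overlapped. Irs1 fell by 0.50 on the log2 scale in DCM compared to CK (SE 0.114, fold 0.705, edgeR adjusted p = 0.0148). That call was lost on leaving out CK replicate 2 (-0.45, edgeR adjusted p = 0.0719), DCM replicate 1 (-0.39, edgeR adjusted p = 0.0624) or DCM replicate 3 (-0.48, edgeR adjusted p = 0.0668). Irs1 also fell in SPM compared to CK, by 0.58 (SE 0.082, edgeR adjusted p = 0.00219), and by 0.62 without SPM replicate 2 (edgeR adjusted p = 0.0123). SPM and DCM differed by -0.069 (SE 0.114, edgeR adjusted p = 0.705).

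Irs2 stood at 27.2, 67.1 and 40.7 normalized CPM in CK, the widest spread of the 9 genes, with a coefficient of variation of 45.1%. The DCM libraries stood at 67.4, 55.0 and 61.2 CPM, and the SPM libraries at 41.1, 47.5 and 51.6 CPM. The CK range covered all other libraries but DCM replicate 1, while every SPM library was below every DCM library. Irs2 fell by 0.39 on the log2 scale in SPM compared to DCM (SE 0.099, fold 0.763, edgeR adjusted p = 0.0280). Several settings ended this call. Without SPM replicate 2 the difference was -0.40 (edgeR adjusted p = 0.0984), without DCM replicates 1, 2 and 3 it was -0.32, -0.46 and -0.40 (edgeR adjusted p = 0.0911, 0.0632 and 0.0630), and with GC correction it was -0.23 (edgeR adjusted p = 0.199).

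In DCM compared to CK, Irs2 differed by 0.44 (SE 0.229, edgeR adjusted p = 0.260) and did not pass. The value turned on CK replicate 2, without which it was 0.85 (SE 0.152, edgeR adjusted p = 0.00798), and it was 0.18 without CK replicate 1. Within CK, replicate 2 also had the highest summed adipocyte markers (138 CPM, against 15.9 and 41.5 in replicates 1 and 3) and liver markers (34.8 CPM, against 4.08 and 1.66), and their part in the Irs2 values was not tested. Against CK, the SPM libraries differed by 0.044 (SE 0.270, edgeR adjusted p = 0.919). The Irs2 to Irs1 ratio of FPKM was 1.44, 3.10 and 2.04 in CK, 5.54, 3.29 and 4.42 in DCM and 3.04, 3.32 and 4.02 in SPM. All DCM libraries were above all CK libraries, with a fold of 2.07 between the groups (two-sided exact permutation p = 0.1, the smallest that 3 against 3 libraries allow, and 0.3 after Benjamini-Hochberg adjustment over 9 ratio comparisons). The exact permutation p was 0.3 for SPM compared to DCM and 0.2 for SPM compared to CK (adjusted 0.45 and 0.36). Those log2 differences of the ratio were -0.33 and 0.72, and -0.31 and 0.74 without SPM replicate 2.

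Pik3r1 (ENSMUSG00000041417, chr13:101680563-101768217, minus strand) encodes the regulatory subunit p85-alpha, which stabilizes the catalytic subunit and docks it to the adaptors. Its level was 65.4, 68.4 and 85.9 normalized CPM in CK, 117, 140 and 168 in DCM and 181, 157 and 141 in SPM. The lowest DCM library was above the highest CK library, and DCM and SPM overlapped. Pik3r1 rose by 0.95 on the log2 scale in DCM compared to CK (SE 0.130, fold 1.94, edgeR adjusted p = 0.000610). Its rise in SPM compared to CK was 1.12 (SE 0.121, fold 2.18, edgeR adjusted p = 0.00106). It passed in both comparisons under all 17 alternatives, with log2 values of 0.80 to 1.08 and 0.97 to 1.25. SPM and DCM differed by 0.18 (SE 0.128, edgeR adjusted p = 0.361), and 0.035 with GC correction.

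Among the regulatory subunit genes, Pik3r1 made up 85.3% ± 1.31 (SD, n = 3) of the summed FPKM of Pik3r1, Pik3r2 and Pik3r3 in CK, 89.8% ± 3.51 in DCM and 88.5% ± 6.61 in SPM. The sum itself was 12.6 ± 1.60 FPKM in CK, 21.7 ± 2.90 in DCM and 24.7 ± 1.75 in SPM. The SPM share was 86.7% and the sum 25.4 FPKM without SPM replicate 2. The FPKM ratio of Pik3r1 to Pik3ca, which encodes a catalytic subunit, was at most 2.15 in CK, with 3.28 to 4.90 for DCM and 3.47 to 4.83 for SPM. The libraries of CK lay below all others in this ratio.

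**Figure D3:**
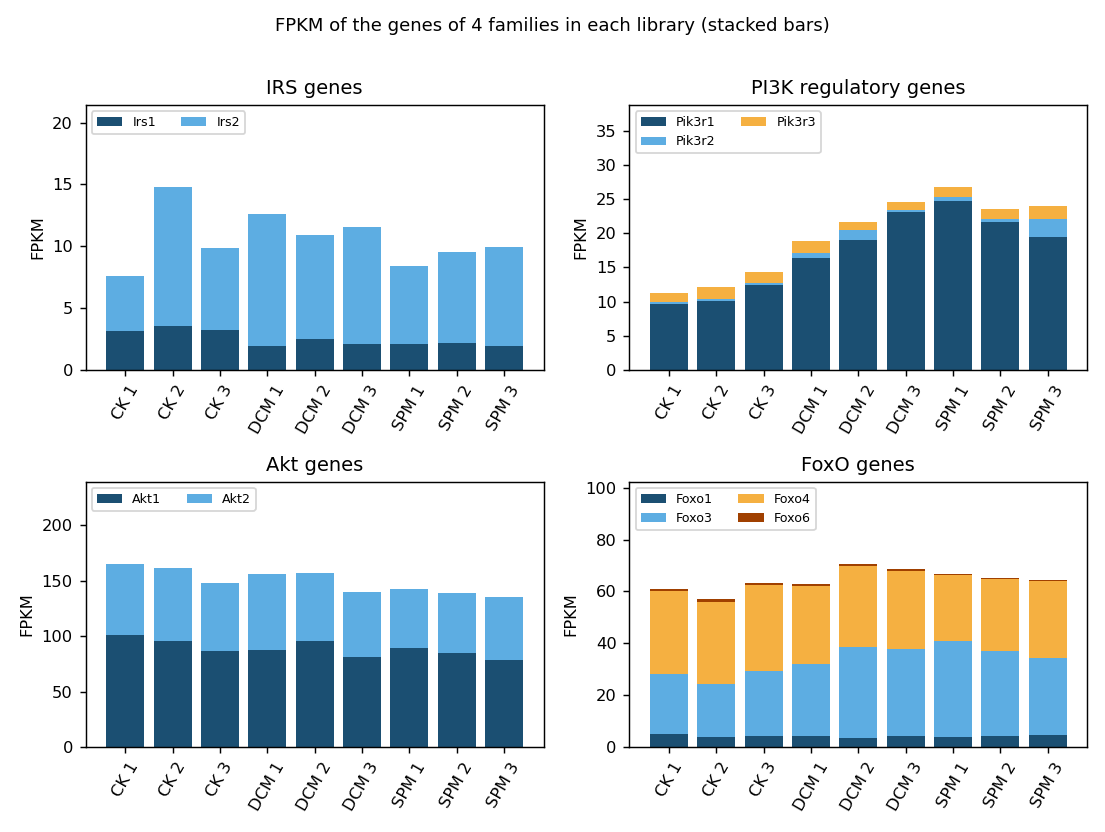
Stacked bars of FPKM (vertical axes, from 0) for the IRS, PI3K regulatory, Akt (Akt1 and Akt2) and FoxO genes in each of the 9 libraries. The PI3K regulatory sum rises from at most 14.4 FPKM in CK to at least 18.8 in DCM, most of it Pik3r1, and Foxo3 takes a larger part of the FoxO sum in DCM and SPM.

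Akt1 (ENSMUSG00000001729, chr12:112653821-112674884, minus strand) and Akt2 (ENSMUSG00000004056, chr7:27591552-27640826, plus strand) encode the kinases downstream of PI3K, of which Akt2 is known for insulin-stimulated glucose uptake and Akt1 for growth. Akt1 had 259, 245 and 225 normalized CPM in CK, 236, 266 and 223 in DCM and 249, 233 and 217 in SPM, and the groups overlapped in every comparison. Its differences were -0.0060 (SE 0.084), -0.053 (SE 0.084) and -0.064 (SE 0.072) on the log2 scale in DCM compared to CK, SPM compared to DCM and SPM compared to CK. The edgeR adjusted p was between 0.535 and 0.979. With GC correction the differences involving SPM turned to 0.15 and 0.13, which did not pass either.

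Akt2 had 279, 285 and 273 normalized CPM in CK, 309, 289 and 274 in DCM and 247, 251 and 263 in SPM. The SPM libraries lay below all others. The differences of -0.20 from DCM (SE 0.070, edgeR adjusted p = 0.0744) and -0.14 from CK (SE 0.054, edgeR adjusted p = 0.0795) did not pass, and they shrank to -0.057 and -0.018 with GC correction. Leaving out DCM replicate 3 brought the difference from DCM past the threshold (-0.25, edgeR adjusted p = 0.0474), as did DESeq2 (-0.21, DESeq2 adjusted p = 0.0248), and the adjusted p reached 0.613 over the other alternatives. In DCM compared to CK the difference was 0.060 (SE 0.072). The Akt2 to Akt1 ratio of FPKM was 0.682 ± 0.0401 (SD, n = 3) in CK, 0.715 ± 0.0662 in DCM and 0.647 ± 0.0653 in SPM, with exact permutation p of 0.2 to 0.4. Its log2 difference was -0.15 in SPM compared to DCM and -0.080 in SPM compared to CK, and -0.14 and -0.071 without SPM replicate 2.

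Foxo1 (ENSMUSG00000044167, chr3:52268336-52353221, plus strand) and Foxo3 (ENSMUSG00000048756, chr10:42181841-42276755, minus strand) encode the FoxO factors that Akt phosphorylates. Foxo3 had 151, 133 and 167 normalized CPM in CK, 191, 247 and 238 in DCM and 261, 231 and 209 in SPM. All DCM and SPM libraries were above all CK libraries, and DCM and SPM overlapped. Foxo3 rose by 0.59 on the log2 scale in DCM compared to CK (SE 0.106, edgeR adjusted p = 0.00432), and its fold lay at the limit for a DEG. The rise in SPM compared to CK was 0.63 (SE 0.10, fold 1.55, edgeR adjusted p = 0.00340), and 0.64 without SPM replicate 2 (edgeR adjusted p = 0.0159). SPM and DCM differed by 0.053 (SE 0.109, edgeR adjusted p = 0.763).

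Foxo1 had 42.0, 33.2 and 35.9 normalized CPM in CK, 36.2, 32.8 and 36.5 in DCM and 36.2, 37.8 and 41.3 in SPM. The groups overlapped in every comparison. Its log2 differences of -0.073 (SE 0.096), 0.13 (SE 0.077) and 0.049 (SE 0.094) did not pass (edgeR adjusted p = 0.703, 0.269 and 0.725 in DCM compared to CK, SPM compared to DCM and SPM compared to CK). The Foxo3 to Foxo1 ratio of FPKM was 4.54 to 5.87 in CK, with 6.66 to 9.54 for DCM and 6.41 to 9.11 for SPM. The DCM and SPM ratios lay above those of CK, by 0.65 and 0.58 on the log2 scale (exact permutation p = 0.1 each, the smallest possible, adjusted 0.3), and DCM and SPM overlapped (exact permutation p = 0.7). Without SPM replicate 2 the difference of SPM from CK was also 0.58.

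Foxo4 was the other abundant FoxO gene in these hearts. It held 53.3% ± 1.71 (SD, n = 3) of the summed FPKM of the 4 FoxO genes in CK, 45.1% ± 2.24 in DCM and 42.0% ± 3.88 in SPM. Foxo3 held 37.8% ± 1.96, 47.8% ± 2.81 and 50.7% ± 4.66, respectively. Foxo1 held at most 8.32% and Foxo6 at most 1.81% in any library. The SPM shares were 41.8% for Foxo4 and 50.9% for Foxo3 without SPM replicate 2. The Foxo3 share in DCM and SPM was above that of every CK library.

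Trim63 (ENSMUSG00000028834, chr4:134315120-134329629, plus strand) encodes the ligase MuRF1, which ubiquitinates sarcomere proteins. Because Trim63 is a textbook FoxO target, the 250 bases before its RefSeq start are shown, with the match to the FoxO core GTAAACA, read here as TGTTTAC on the other strand, in capitals.
Trim63, chr4:134314870-134315119, plus strand: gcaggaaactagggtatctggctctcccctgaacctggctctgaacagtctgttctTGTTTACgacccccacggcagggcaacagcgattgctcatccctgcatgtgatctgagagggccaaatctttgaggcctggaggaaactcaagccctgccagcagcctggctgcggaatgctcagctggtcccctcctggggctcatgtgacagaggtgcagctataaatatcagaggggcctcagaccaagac
The match begins 194 bases before the start. Among the windows of the 8 members, the FoxO core was also in 1 window of Akt1, 161 bases before its start, and 3.65% of all windows hold it. An exact match to the palindromic glucocorticoid response element was in no window of these members, and in 3 of all 32851 windows. In the Trim63 sequence above, the letters directly before the capitals depart from this palindrome only in its first letter. Inexact matches were not searched for, so the search does not show that Trim63 lacks such an element.

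Trim63 had 323, 310 and 337 normalized CPM in CK, 279, 339 and 282 in DCM and 406, 353 and 312 in SPM. The groups overlapped in all 3 comparisons. The log2 difference was -0.11 in DCM compared to CK (SE 0.086, edgeR adjusted p = 0.495), 0.25 in SPM compared to DCM (SE 0.108, edgeR adjusted p = 0.129) and 0.14 in SPM compared to CK (SE 0.090, edgeR adjusted p = 0.278). Without SPM replicate 3, the lowest of its group, the difference from DCM was 0.33 and passed (edgeR adjusted p = 0.0490).

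Fbxo32 (ENSMUSG00000022358, chr15:58175879-58214932, minus strand) encodes atrogin-1, the F-box subunit of a muscle ubiquitin ligase complex. It was listed at 0 counts in 8 libraries and at 1 count in CK replicate 3, below a floor of 3 counts, which is at least 0.0755 CPM in these libraries. Genes that cells generally use were near 0 in the same table, among them Arf4 with 2 counts, Sumo3 with 3 and Pabpn1 with 5 over all 9 libraries (picked after their counts were seen). The table holds 2576 genes with at most 3 counts in all. No comparison or ratio was made for Fbxo32, and whether its low counts came from the hearts or from the counting was not tested.

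**Figure D4:**
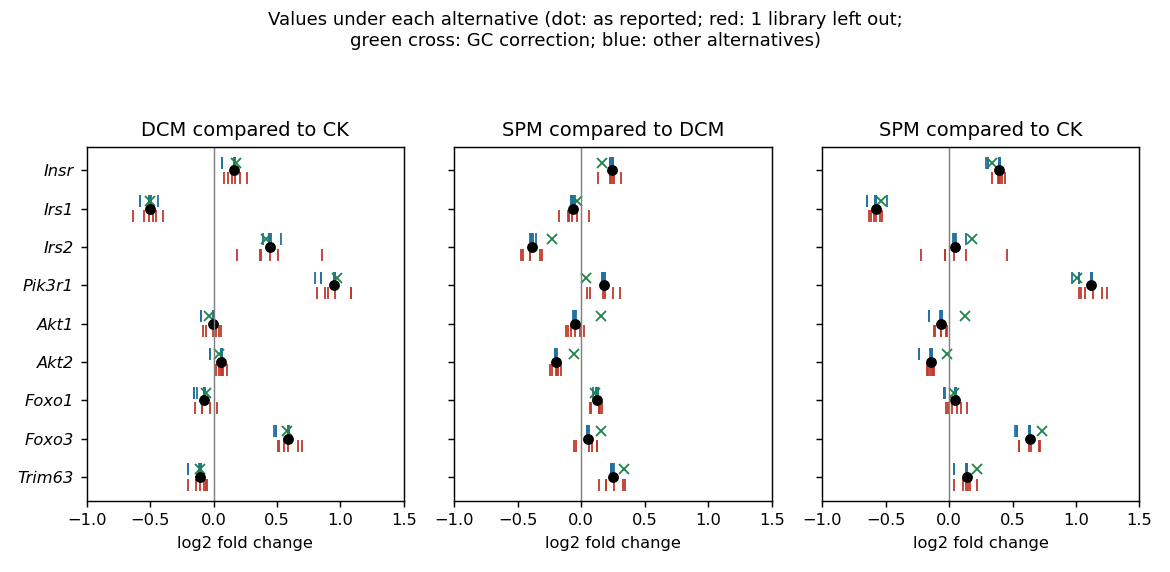
Log2 fold change (horizontal axis) of the 9 tested genes under each alternative way of processing, as marked in the title. Pik3r1, Foxo3 and Irs1 keep to their side of 0 in both comparisons with CK, Irs2 in DCM compared to CK spans 0.18 to 0.85, and the green crosses of GC correction depart most from the dots in the comparisons with SPM.

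Lists of other genes of the pathway were read in the same fits. Counts with a library left out are given without the share of all genes past the test in those fits. A fall in such a count is therefore not read as a result about the list. Among 15 genes that act at the receptor, 2 were higher and 1 was lower in DCM compared to CK (10.4% of all genes passed). Grb10, an adaptor that restrains the receptor, fell from 102 to 106 normalized CPM in CK to 71.6 to 84.2 in DCM (log2 difference -0.39, SE 0.077, edgeR adjusted p = 0.00671). The phosphatase genes Ptprf and Ptpn11 rose by 0.36 (SE 0.090) and 0.33 (SE 0.085), and neither passed without CK replicate 2, DCM replicate 2 or DCM replicate 3, where 1 gene passed in all. In SPM compared to DCM none of the 15 passed with edgeR at the settings used here or with DESeq2 (16.6% of all genes passed in edgeR), where 1 was higher and 1 lower at an unadjusted p below 0.05 in edgeR. Of the other edgeR settings, the 1 CPM filter, all 9 libraries in one fit, the replicate block and GC correction each gave 1. SPM compared to CK had 2 higher and 2 lower (27.4% of all genes passed), led by the phosphodiesterase gene Enpp1 (-0.44, SE 0.125). Without SPM replicate 2 none passed, and 1 or 2 passed without CK replicate 1, CK replicate 2 or SPM replicate 1.

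Of 14 genes for other PI3K subunits and phosphoinositide phosphatases, 2 were higher in DCM compared to CK, where 10.4% of all genes passed. The regulatory subunit gene Pik3r2 was low, with 0.779 to 1.02 normalized CPM in CK and 1.11 to 4.61 in DCM (log2 difference 1.62, SE 0.454), and Inpp5k differed by 0.28 (SE 0.070). Neither was called without CK replicate 2, DCM replicate 1 or DCM replicate 2, and without CK replicate 3 none was higher and 2 were lower. SPM compared to DCM had 3 higher genes, with 16.6% of all genes past the test. Among them were Pik3c2a, a class II PI3K gene (0.63, SE 0.113), and Inpp4b (0.37, SE 0.094). This count became 0 on leaving out SPM replicate 2 and on GC correction, 1 on leaving out DCM replicate 1 or 2, and 5 on leaving out SPM replicate 3. SPM compared to CK had 3 higher and 3 lower (27.4% of all genes passed), among them Pik3r2 (2.21, SE 0.675), the phosphatase gene Inppl1 (-0.44, SE 0.097) and Inpp4a (-0.26, SE 0.065). Pik3r2 had 1.76, 1.42 and 8.85 normalized CPM in the SPM libraries. Without SPM replicate 3, the highest, its difference from CK was 0.87 (SE 0.354) and did not pass (edgeR adjusted p = 0.101), nor did it pass without any 1 of the CK libraries. That count of 6 was 1 without SPM replicate 2 and 2 without SPM replicate 1 or any 1 of the CK libraries.

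Of 28 genes for Akt, mTOR and the steps below them, 2 were higher and 2 lower in DCM compared to CK, where 10.4% of all genes passed. Eif4ebp1, a brake on translation that mTOR inactivates, rose from 143 to 160 normalized CPM in CK to 214 to 250 in DCM (0.61, SE 0.079, edgeR adjusted p = 0.000477). The kinase gene Sgk1 rose by 0.54 (SE 0.125), and Tbc1d4, whose product is an Akt substrate that holds back glucose transporters, fell by 0.42 (SE 0.098). Eif4e fell by 0.22 (SE 0.065), and did not pass on leaving out any 1 library of this comparison (edgeR adjusted p = 0.0766 to 0.140). The count of 4 was 2 without CK replicate 2, CK replicate 3, DCM replicate 1 or DCM replicate 3, and 1 without DCM replicate 2. Of the 28, 2 were higher and 3 lower in SPM compared to DCM (16.6% of all genes passed), among them the mTOR complex gene Rictor (0.44, SE 0.092), the kinase gene Rps6kb1 (0.36, SE 0.093), Eif4ebp1 (-0.36, SE 0.104) and Tsc2 (-0.33, SE 0.091). None passed without SPM replicate 2 or DCM replicate 2, and 1 passed without DCM replicate 1 or with GC correction. With 1 library left out, Eif4ebp1 passed only without SPM replicate 1 and Tsc2 only without SPM replicate 3. Rps6kb1 passed only without DCM replicate 1 or SPM replicate 1. SPM compared to CK again had 3 higher and 3 lower (27.4% of all genes passed), including Sgk1 (0.52, SE 0.109), Gsk3b (0.27, SE 0.075), Tbc1d4 (-0.32, SE 0.102) and Tsc2 (-0.29, SE 0.060). That count was 1 without SPM replicate 2 and 3 without CK replicate 3.

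The FoxO list held Foxo4, Foxo6 and textbook FoxO targets, 22 of 24 of which were tested. It was chosen with earlier results of these data known, so its counts beside those of all genes are descriptive. In DCM compared to CK, 7 of the 22 were higher and 2 lower, where 5.28% and 5.11% of all genes were, and the median log2 difference was 0.14 against -0.0025 over all genes. Without 1 library the count was 8 to 10. Cdkn1a, a cell cycle inhibitor gene, rose from 56.6 to 83.2 normalized CPM in CK to 114 to 152 in DCM (1.01, SE 0.135, edgeR adjusted p = 0.000552). The mitophagy gene Bnip3 rose from 57.9 to 62.8 to between 95.8 and 120 CPM (0.87, SE 0.090, edgeR adjusted p = 0.000110). Pnpla2, the gene of the triglyceride lipase ATGL, rose from 721 to 807 to between 1147 and 1288 CPM (0.69, SE 0.079). Against the direction of these, the growth arrest gene Gadd45a fell by 0.79 (SE 0.191) and Pdk4, whose product limits glucose oxidation, fell by 0.44 (SE 0.078).

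With spermine, none of the 22 was higher and 5 were lower in SPM compared to DCM by the edgeR test (8.87% and 7.76% of all genes), and none was higher by DESeq2 either, against 2 at an unadjusted p below 0.05 in edgeR. The median was -0.14, against 0.0057 over all genes. Pnpla2 fell by 0.48 (SE 0.074), Bnip3 by 0.42 (SE 0.121), Pdk4 by 0.43 (SE 0.127) and the autophagy kinase gene Ulk1 by 0.29 (SE 0.063). Bnip3 and Pdk4 were near the threshold (edgeR adjusted p = 0.0413 and 0.0455). With 1 library left out, Bnip3 passed only without SPM replicate 1 and Pdk4 only without SPM replicate 3. The SPM libraries of Pnpla2, at 854 to 902 normalized CPM, lay between those of CK and DCM, and those of Bnip3, at 70.4 to 97.5 CPM, overlapped with DCM. Those of Pdk4, at 1307 to 1983 CPM, lay below both DCM (2167 to 2271 CPM) and CK (2805 to 3200 CPM). On leaving out SPM replicate 2 the count of 5 became 0, on leaving out DCM replicate 2 it became 1, DCM replicate 3 gave 2, and DCM replicate 1 or SPM replicate 1 gave 3. Without SPM replicate 2, Pnpla2, Bnip3, Pdk4 and Ulk1 differed by -0.47, -0.41, -0.44 and -0.29 (edgeR adjusted p = 0.0566 to 0.135). With GC correction 5 were lower. SPM compared to CK had 11 higher and 4 lower (13.0% and 14.3% of all genes), among them Cdkn1a (0.76, SE 0.131), the stress gene Sesn1 (0.59, SE 0.136), the deacetylase gene Sirt1 (0.58, SE 0.126) and Pdk4 (-0.87, SE 0.134). That count of 15 was 6 without SPM replicate 2 and 9 without CK replicate 2.

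**Figure D5:**
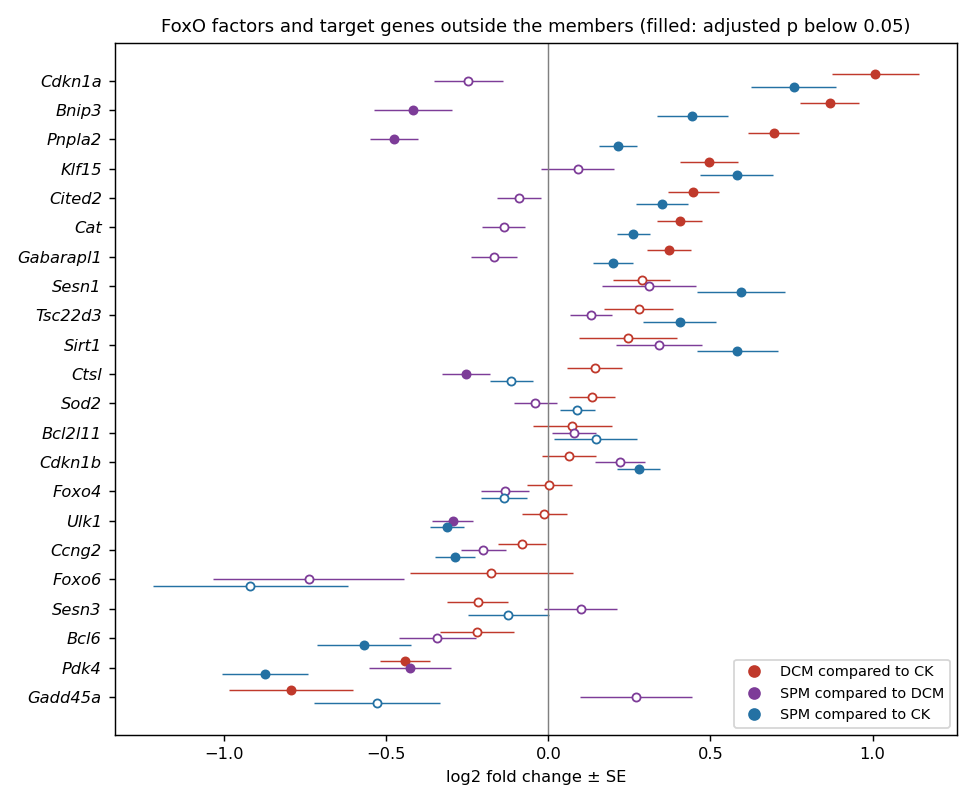
Log2 fold change ± SE (horizontal axis) of the 22 tested genes of the FoxO list in the 3 comparisons (colours), with filled points at adjusted p below 0.05, ordered by DCM compared to CK. Cdkn1a, Bnip3 and Pnpla2 head the 7 that were higher in DCM, and Gadd45a and Pdk4 are the 2 that were lower.

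The last list held other muscle ubiquitin ligases, ubiquitin and proteasome genes and atrophy regulators, of which 24 of 29 were tested. DCM compared to CK, where 10.4% of all genes passed, had 2 higher genes, namely Trim54, the gene of the MuRF1 relative MuRF3 (0.64, SE 0.093, edgeR adjusted p = 0.00105), and Fbxo21 (0.46, SE 0.086). Trim54 had 187 to 216 normalized CPM in CK, with DCM at 284 to 357 and SPM at 247 to 249 CPM, so that the groups did not overlap. SPM compared to DCM had 2 higher and 7 lower (8.87% and 7.76% of all genes), among them Trim55, the gene of MuRF2 (0.42, SE 0.083), the signalling ligase gene Traf6 (0.39, SE 0.097), the ubiquitin gene Ubb (-0.41, SE 0.089) and the transcription factor gene Cebpb (-1.01, SE 0.311), which had at most 3.72 CPM. That count of 9 was 0 without SPM replicate 2, DCM replicate 1 or DCM replicate 2, and 2 with GC correction. Cebpb did not pass on leaving out any 1 library of that comparison (edgeR adjusted p = 0.0525 to 0.181). Of the 24, 3 were higher and 3 lower in SPM compared to CK (13.0% and 14.3% of all genes), including Traf6 (0.37, SE 0.070) and the proteasome genes Psmb5 (-0.33, SE 0.067) and Psmc4 (-0.29, SE 0.074). Without SPM replicate 2, 1 passed.

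Hearts hold several cell types, and in these bulk samples fewer cells of a type and less RNA per cell cannot be told apart. The 6 fibroblast markers, led by Dcn, summed to between 1970 and 2063 CPM in CK, between 1333 and 1423 CPM for DCM and between 1588 and 1649 CPM for SPM. Of the 6, 4 were lower in DCM compared to CK (5.11% of all genes) and 2 were higher in SPM compared to DCM (8.87%). Dcn itself did not follow the fibroblast sums. Its CK and DCM libraries overlapped (means of 795 and 774 normalized CPM), and every SPM library lay above both (mean 992). The fibroblast markers also split in SPM compared to CK, with 2 higher and 3 lower (13.0% and 14.3% of all genes). Of 6 macrophage markers, led by Lyz2, 3 were lower and 1 was higher in DCM compared to CK, and 3 were higher in SPM compared to DCM, with sums of 586 to 756, 496 to 573 and 586 to 966 CPM. The cardiomyocyte list ranged from 44420 to 49500 CPM in CK, with DCM at 42940 to 49500 and SPM at 36880 to 41220 CPM. The endothelial list, led by Cdh5, summed to 1731 to 2028, 1633 to 1828 and 1467 to 1613 CPM. In SPM compared to CK, 3 of 6 cardiomyocyte and 3 of 6 endothelial markers were lower (14.3% of all genes), and 1 cardiomyocyte marker was higher (13.0%). In SPM compared to DCM, 1 cardiomyocyte and 2 endothelial markers were lower (7.76% of all genes). In DCM compared to CK, 1 endothelial marker was lower (5.11% of all genes). The 4 smooth muscle markers, led by Acta2, had sums of 302 to 463, 282 to 580 and 229 to 340 CPM, and their median log2 difference was -0.50 in SPM compared to DCM. The adipocyte list, led by Cfd, summed to 15.9 to 138, 16.4 to 41.3 and 39.0 to 58.6 CPM. The liver list, led by the albumin gene Alb, summed to 296, 134 and 1.07 CPM in SPM replicates 1, 2 and 3 and to at most 1.43 CPM in DCM. Of its 5 genes, the 3 tested in SPM compared to DCM were higher. At such DCM levels a gene could enter that test mainly through SPM replicates 1 and 2, so its direction was largely set beforehand. The sum of SPM replicate 3 lay within the DCM range. Alb had 8041, 3517 and 9 counts in the SPM libraries and 1010 in CK replicate 2. The SPM ranges of these sums were the same without SPM replicate 2. The counts of markers past the test and the smooth muscle median were not taken without it. In DCM compared to CK the fibroblast sums fell, as Irs1 did, while Pik3r1 and Foxo3 rose. In SPM the fibroblast sums lay between those of CK and DCM, whereas the SPM libraries of Irs1, Pik3r1 and Foxo3 overlapped with DCM. The cardiomyocyte and endothelial sums were lowest in the SPM libraries, and the liver sums were high in only 2 of those. The part of these sums in the results was not tested.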

How the data were processed

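Heart RNA was measured in 9 libraries grouped by their titles. The authors deposited whole-number counts per gene and, separately, FPKM, which are the counts over a fixed gene length and the library's sum (largest relative deviation 8.58e-13). Reads were filtered with fastp 0.18.0 per the methods of the study. The submitters' processing notes list Bowtie 0.12.2 and the builds mm8 and mm9 without a role, and the aligner's and counter's roles are otherwise not given in the sources used here. No source says that the library kit kept strand, so antisense reads cannot be told apart.

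The members and lists were chosen with earlier results of these data known. Symbols and coordinates came from GENCODE M21 on GRCm38 (22820 of 22851 identifiers matched), and promoters from RefSeq on GRCm38.p6. Insr and Fbxo32 had no promoter entry. Map1lc3b, Txnip, Fbxo31, Trim32, Stub1 and Ube2b matched no gene of the count table by symbol and were not analysed here. The same held for the cardiomyocyte markers Actc1 and Pln, the skeletal fibre marker Myh4 and the retina markers Rcvrn and Rbp3. Counts were compared pairwise, 6 libraries at a time, with edgeR 4.0.16 (filterByExpr, TMM, quasi-likelihood test, Benjamini-Hochberg) in R 4.3.3. DESeq2, the tool of the study, was an alternative (version 1.42.0 here), as were limma 3.58.1 on log2 of FPKM plus 0.1 or 1 (minimum 0.5 FPKM in 3 libraries, or no filter), RLE normalization, other low-count filters, all 9 libraries in 1 fit, a replicate block, an offset for GC content (lowess span 0.3), leaving out mitochondrial genes, and leaving out each library. A gene passed at adjusted p below 0.05, and was a DEG with a fold change of at least 1.5. The standard error is the log2 fold change over the square root of F. Scripts were tested on simulated data. From each list, at most the 4 largest changes past the test per comparison were named, with the leading gene of a marker list, and some genes that this rule takes are not reported here. Ratios were compared by exact permutation of log2 count ratios. Motifs were searched on both strands from 250 bases before to 50 after each start. Replicate numbers did not pair libraries. Other steps used Python 3.11.15, pandas 2.3.3, scipy 1.17.1 and matplotlib 3.10.9.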

Additional observations from a re-analysis of the deposited data

How the results depend on the processing

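The number of tested members past the test, 3 in DCM compared to CK, was 1 with limma on log2 FPKM plus 0.1 without a filter. The 1 of SPM compared to DCM was 2 with DESeq2 and 2 with a replicate block, and 0 with all 9 libraries in one fit, with GC correction, under each of the 3 limma settings and with the limit of a 1.5-fold change, and it ranged from 0 to 2 with 1 library left out. The 4 of SPM compared to CK was 2 with the 1.5-fold limit. The replicate block brought Insr past the test in SPM compared to DCM (0.25, edgeR adjusted p = 0.0442) and changed no other call among the members. Correlations of same-numbered libraries ran from -0.0746 to 0.205, those of other numbers from -0.284 to 0.218. Irs1 and Foxo3 in DCM compared to CK missed the threshold with limma without a filter (adjusted p = 0.0652 and 0.0531). Irs2 in DCM compared to CK passed without a low-count filter (0.44, edgeR adjusted p = 0.000292), and limma brought Akt2 past it in SPM compared to CK (-0.24, -0.23 and -0.24). The causes were not tested, and the share of all genes past the test under each setting is not given here.

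Counts over the gene lists, also given without the share of all genes under each setting, moved by more than 1.5 times as follows. In DCM compared to CK the 2 ligase and atrophy genes past the test became 4 or 5 with DESeq2, both other low-count filters, all 9 libraries in one fit, GC correction and filtered limma, the 2 PI3K genes became 1 with all 9 libraries or the replicate block and 0 with limma, and the 3 receptor genes became 1 with unfiltered limma. In SPM compared to DCM, DESeq2 gave 5 PI3K and 8 Akt and mTOR genes (edgeR 3 and 5), the 1 CPM filter gave 5 PI3K genes, and the replicate block gave 8 Akt and mTOR and 9 FoxO list genes (without it 5 and 5). The receptor list went from 0 to 1 with the 1 CPM filter, all 9 libraries, the block and GC correction. With limma, filtered at plus 0.1 and unfiltered, the Akt and mTOR count was 3 and 0 and the FoxO list count 3 and 2, and unfiltered limma gave 0 PI3K and 2 ligase and atrophy genes (as reported 3 and 9). In SPM compared to CK, GC correction gave 7 receptor genes (as reported 4), limma gave 3 PI3K genes (as reported 6) and, filtered, 12 ligase and atrophy genes (as reported 6), and unfiltered limma gave 1 receptor and 8 FoxO list genes (as reported 4 and 15). FPKM carry no TMM scaling, and the median of all genes moved by less than 0.1 under limma.

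None of the values that turned sign passed. In DCM compared to CK, Akt1 was 0.00054 with DESeq2 and -0.081 to 0.056 with 1 library left out, Akt2 was -0.032, -0.031 and -0.032 with limma, and Foxo1 was -0.15 to 0.026 with 1 library left out. In SPM compared to DCM, Akt1 was 0.15 with GC correction and -0.12 to 0.022 with 1 library left out, Irs1 was -0.18 to 0.060 and Foxo3 was -0.061 to 0.13 with 1 left out. In SPM compared to CK, Akt1 was 0.13 with GC correction, Foxo1 was -0.041, -0.035 and -0.041 with limma and -0.027 to 0.14 with 1 library left out, and Irs2 was -0.22 to 0.45. The lowest count of the 9 tested members in a library was 570. Fbxo32, with 1 count over all libraries, was too low for a difference to be detectable, and why it was low was not tested.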

Other observations

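Genes with the most similar pattern were sought for Irs2, Foxo1 and Trim63 among 9996 genes with a mean of at least 5 CPM, by the root mean square difference of centred log2 CPM over the 9 libraries. For Irs2, whose own spread by this measure was 0.395, they were Fosl2 (0.173), Acat2 (0.219) and Tob2 (0.240). Fosl2, a gene of an AP-1 factor, had 41.4, 85.9 and 63.7 normalized CPM in CK, so that CK replicate 2 was highest and CK replicate 1 lowest of that group, as for Irs2. The DCM libraries of Fosl2 ranged from 69.2 to 77.2 CPM, and the highest of SPM was 68.0 CPM. For Trim63 (own spread 0.157) the nearest were the potassium channel gene Kcnq1 (0.061), Chfr (0.0743) and Rmi1 (0.0759). For Foxo1 (own spread 0.114) they were Tspyl5 (0.0522), Zfp27 (0.0624) and Ttpal (0.0641). Fbxo32 was below the minimum. These are descriptions over 9 libraries that share their groups.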
